A study of Bos taurus with 12 samples.

Results

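First intron sites are cytosines that lie in intron 1, the intron after the first exon, of an annotated bovine transcript. They were taken from a deposited table of cytosines that the authors had selected for a methylation difference between subfertile and fertile cows, by the annotation of each site as intron 1 on a numbered autosome. The rule took 19159 of the 216990 deposited sites, or 8.83%, and used no methylation value. The members lay in 3109 introns of 2982 genes. The table held 19325 sites annotated to an intron 1, and 166 of them were left out because they lay outside the numbered autosomes. First introns held 25.1% of the autosomal intron sites, and the 57044 sites in later introns serve here for comparison, with the whole table.

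DNA came from whole blood of 12 dairy cows (Bos taurus) of a single herd under shared farm conditions, between 3 and 8 years old, with no age given per cow. The 6 Subfertile cows were removed from the herd over the next year for reproductive trouble that was not known when blood was drawn, and the 6 Fertile cows remained without such trouble. The words Subfertile and Fertile name an outcome of each animal, although the labels carry them under genotype, and no treatment or allele is named. In the table the columns of the Subfertile cows carry the letter F and those of the Fertile cows the letter R. The labels, which give no meaning for these letters, were followed. Should the letters stand for the opposite groups, every direction below would turn. A value gives, for 1 cow, the percent methylated at 1 cytosine after enzymatic conversion, which reads methylated and hydroxymethylated cytosines alike. How many reads stand behind it is unknown. The label blood was not checked against cell markers, since a level at selected cytosines does not give a cell type. Blood mixes many cell types, so a change in their proportions and a change in the methylation of a cell type cannot be told apart.

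The first intron begins close to the promoter and is, in vertebrate genes, often the longest intron and rich in enhancers and other regulatory sequence. Across tissues and vertebrate species, methylation of the first intron has been described as inversely related to the expression of its gene. In most mammalian cell types CpG sites in gene bodies are largely methylated, while CpG-dense stretches around transcript starts are largely unmethylated. The annotation used here gave promoters, within 3 kb of a start, priority over introns. The first intron sites are therefore the remote part of the intron, and the closest lay 3002 bases from any annotated transcript start. The median distance to the nearest start was 18953 bases, and that start belonged to the same gene for 87.3% of the sites. Genes with a symbol in the table held 90.7% of the sites.

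First intron sites averaged an intermediate level in both groups. The mean level per cow ran from 54.2% to 56.1% methylated in Subfertile cows with a median of 55.2%, against 52.2% to 55.5% in Fertile cows with a median of 54.4%. The cows of the groups overlapped, with means of 55.3 ± 0.70% in Subfertile cows and 54.2 ± 1.10% in Fertile cows (SD, n = 6 each). Later intron sites averaged 55.9 ± 0.69% in Subfertile cows and 55.7 ± 0.42% in Fertile cows (SD, n = 6 each). Within a cow, first introns stood below later introns in 10 of 12 cows, by a mean of -1.09 ± 0.88 percentage points (SD, n = 12). The difference of first minus later introns was -0.61 ± 0.70 points in Subfertile cows and -1.56 ± 0.81 points in Fertile cows (SD, n = 6 each), and Fertile cow 1 had the lowest value, -2.85 points. Since the authors chose every site for a difference between these cows, the levels describe the chosen sites and not first introns at large.

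**Figure D1:**
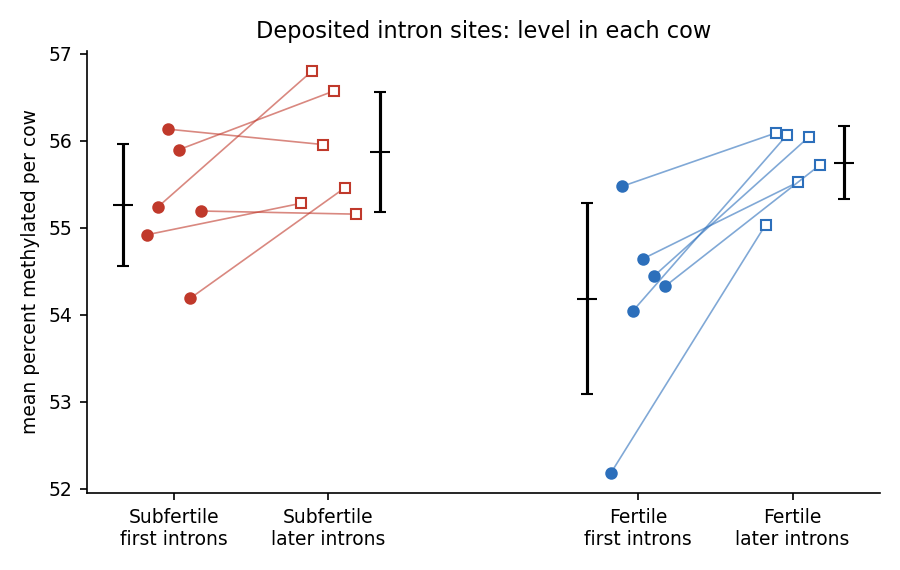
Mean percent methylated of each cow (points, n = 6 per group) over first intron sites (filled circles) and later intron sites (open squares), joined within a cow, with bars for the group mean and SD; the vertical axis does not start at 0. First introns lie below later introns in 10 of 12 cows, and the first intron means of Subfertile and Fertile cows overlap.

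The authors' deposited differences at first intron sites had a median size of 34.8 points, between 25.01 and 73.7 points, and the largest deposited q was 0.009998. Since the authors selected the sites for a difference, the smallest and the median size reflect that selection too. Subfertile cows were higher at 9912 of the 19159 sites and lower at 9247. The share higher was 51.7% (exact binomial interval at 95%, 51.0 to 52.4%, counting error only), against 50.4% in later introns and 52.1% over the whole table. At 600 sites, or 3.13% (interval 2.89 to 3.39%), every Subfertile cow stood above every Fertile cow or every one below, so that the groups did not overlap. The share was 2.75% in later introns and 3.1% over the whole table, so first introns held such sites about as often as the table did. Of these 600 sites, 396 were higher in Subfertile cows and 204 lower, where such sites made up 1.94 and 1.16% of the whole table. The higher ones were 66% of the 600, against 57.7% in later introns and 62.7% over the whole table. Averaged to clusters within 1 kb, 335 of 10231 clusters did not overlap (3.27%, against 3.25% of all clusters).

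Many sites took values at both extremes of the scale. Sites where some cow was under 10% methylated and another over 80%, termed genotype-like, were 69.5% of first intron sites, against 70.2% in later introns and 69.9% over the whole table. A cytosine replaced by thymine in an animal's own DNA is read as unmethylated by this chemistry. The cows' genotypes were not analysed here, and their part in any difference was not tested. A site without a cow near each extreme does not get the label, so its absence says nothing of the cows' genotypes. Among the 600 sites whose groups did not overlap, 243 (40.5%) were genotype-like, and at 14 of them all cows of 1 group were at 0% while at 31 all cows of 1 group were at 100%.

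Sites of an intron moved together when close and less so with distance. The cytosines on both strands of a CpG were present for 4421 CpG sites, which gave 46.2% of the first intron sites, and the strands of a CpG differed by a median of 5.59 points within a cow. Adjacent sites 2 to 100 bases apart had the same direction in 88.4% of pairs in first introns and 88.5% in later introns. Over 100 and up to 1000 bases apart, the share was 83.2% in first introns and 83.5% in later introns, and over 1000 and up to 10000 bases apart it was 73.2% in first introns and 73.9% in later introns. Beyond 10000 bases it was 60.2% in first introns and 61.8% in later introns. Both kinds of intron thus followed nearly the same course.

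**Figure D2:**
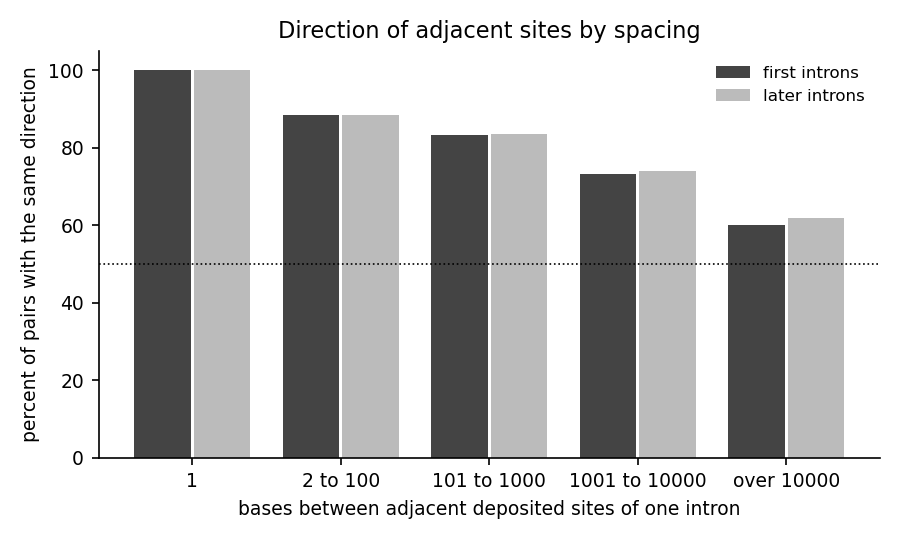
Percent of adjacent deposited sites of an intron with the same direction of difference, by the bases between them, for first introns (dark bars) and later introns (light bars), with a dotted line at 50 percent. The share declines with spacing from 100 percent at 1 base to 60.2 percent beyond 10000 bases in first introns.

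Sites were unevenly spread over introns. Of the 3109 introns, 1056 held a single site and 43 held 50 or more, the latter with 18.2% of all first intron sites. Among the 475 first introns with at least 10 sites, 98 (20.6%) had all sites in 1 direction, against 342 of 1147 later introns (29.8%). In 120 of these first introns (25.3%), less than 66.7% of sites shared the commoner direction, against 21.8% of the later introns. For 10371 sites the nearest start was that of the transcript that holds the intron, and for these the non-overlapping share was 3.41% from 3 to 5 kb, 2.82% from 5 to 10 kb and 2.39% from 10 to 20 kb. It was 3.99% from 20 to 50 kb, 4.13% from 50 to 100 kb and 5.54% beyond 100 kb. Without the introns of PDZRN3 and SLC24A2 the last 3 shares were 3.26, 2.34 and 2.39%, so the higher shares beyond 50 kb rested on those introns, while that from 20 to 50 kb stayed above those from 5 to 20 kb.

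PDZRN3 and SLC24A2 held 100 of the 600 non-overlapping sites (16.7%). Outside them 500 sites, or 2.65%, did not overlap, and 61% of those were higher in Subfertile cows. Such sites occurred in 325 first introns, and 241 of these held exactly 1. Calls on whole introns rest on limma, applied to the mean percent per cow over all sites of an intron on a log2 scale, with Benjamini-Hochberg adjustment over 14695 regions of the whole table and a threshold of 0.05. This fit called 3.35% of all regions.

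SLC24A2, a potassium-dependent sodium and calcium exchanger known from cone photoreceptors and neurons, held 117 sites in intron 1 over chr8:24545248-24693467 (ARS-UCD1.2), and 59 of them separated the groups. Subfertile cows were higher at 71 of its sites and lower at 46. Because the sites were divided by their direction, the values of each set are a description. Over the 71 higher sites the cow means ran from 87.4% to 88.4% in Subfertile cows with a median of 87.6%, against 39.3% to 46.1% in Fertile cows with a median of 41.6%. All 6 cows of each group stood within a narrow band, with means of 87.7 ± 0.38% in Subfertile cows and 42.3 ± 2.36% in Fertile cows (SD, n = 6 each). Of these 71 sites 9 were genotype-like. That label needs a cow near each extreme of the scale, and no cow mean over these sites was below 39.3%. The count therefore says nothing of the cows' genotypes, whose part was not tested. Over the 46 lower sites, Subfertile cows 1, 2, 3 and 5 had means of 0, 0.155, 0 and 0%, while Subfertile cows 4 and 6 had 36.5 and 41.0%. Fertile cow 3 had 87.4% there and the other Fertile cows 41.3% to 49.4%, so at the lower sites the cows stood near 3 levels, and 38 of these sites were genotype-like. Over all 117 sites the opposite directions offset each other. The cow means were 52.6% to 69.4% in Subfertile cows with a median of 53.5%, against 41.4% to 58.4% in Fertile cows with a median of 44.8%, and the groups overlapped (limma adjusted p = 0.121).

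PDZRN3, a RING finger E3 ubiquitin ligase with PDZ domains, held 143 sites over chr22:28183755-28361909 (ARS-UCD1.2), of which 111 were higher in Subfertile cows and 41 did not overlap. Over the whole intron the cow means ran from 61.0% to 75.9% in Subfertile cows with a median of 69.1%, against 34.2% to 56.1% in Fertile cows with a median of 45.2%. All Subfertile cows stood above all Fertile cows, with means of 67.9 ± 5.64% and 44.8 ± 7.44% (SD, n = 6 each; limma adjusted p = 0.0489). The call was lost in 9 of 12 fits that each left out 1 cow, with an adjusted p of up to 0.0654 without Subfertile cow 6. Of the 143 sites 93 were genotype-like, 65 among the 111 higher sites and 28 among the 32 lower sites. Fertile cow 1 was at 0% at 58 of the higher sites and Fertile cow 6 at 38, against 4 or fewer in each other Fertile cow. The 32 lower sites averaged 16.7 ± 18.2% in Subfertile cows and 58.0 ± 24.2% in Fertile cows (SD, n = 6 each), with Subfertile cows 1, 3 and 6 at or under 0.269% and Fertile cows 3 and 6 at 86.3 and 84.6%. All 32 lower sites lay from 92.9 kb after the transcript start on. The 99 sites before that point were all higher in Subfertile cows, and 12 beyond it were higher too. The 26 sites in later introns of PDZRN3 averaged 29.1% in Subfertile cows and 63.9% in Fertile cows, and 3 of them were higher in Subfertile cows.

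**Figure D3:**
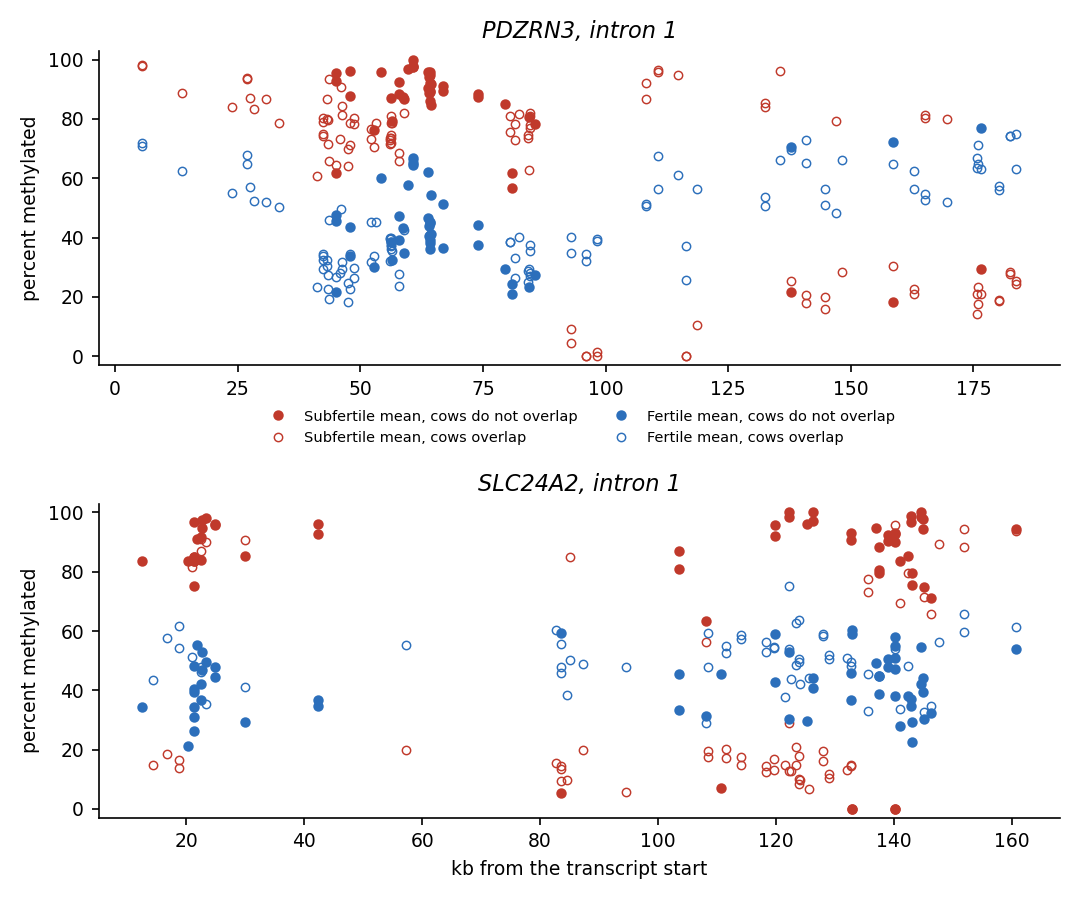
Mean percent methylated at each deposited site of intron 1 of PDZRN3 (143 sites, above) and SLC24A2 (117 sites, below) by distance from the transcript start in kb, in Subfertile cows (red) and Fertile cows (blue, n = 6 each), with filled points where the cows of the groups do not overlap. In both introns stretches where Subfertile cows are higher stand beside stretches where they are lower.

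OIT3, which encodes a secreted zona pellucida domain protein known from liver, held a short run of separating sites: all 9 sites of its first intron, over 1.45 kb at chr28:28918195-28919647 (ARS-UCD1.2), did not overlap. At 4 sites all 6 Subfertile cows were at 0%, while the Fertile means over these sites ran from 41.4% to 94.3% with a median of 59.4%. At the other 5 sites the Subfertile cow means ran from 89.1% to 95% with a median of 90.3%, against 0% to 53.1% in Fertile cows with a median of 38.5%. Fertile cows 2 and 5, which were at 0% over the 5 sites, had 94.3 and 93.0% over the 4 sites. All 9 sites were genotype-like, and since 4 and 5 of them point opposite ways, the intron mean was 50.5 ± 1.22% in Subfertile cows and 46.1 ± 2.79% in Fertile cows (SD, n = 6 each).

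The 10 first introns with the most deposited sites included PDZRN3 and SLC24A2, and among the 10 PDZRN3 alone was called. FHIT, a diadenosine triphosphate hydrolase whose human gene spans a common fragile site, held 206 sites, 139 of them lower in Subfertile cows. Its cow means ran from 32.9% to 53.5% in Subfertile cows with a median of 36.2%, against 46.8% to 63.4% in Fertile cows with a median of 49.8% (limma adjusted p = 0.0948). Subfertile cow 1 alone overlapped the Fertile cows. ASIC2, an acid-sensing ion channel subunit, held 184 sites, 141 of them higher, with cow means of 51.9% to 68.9% and a median of 62.3% in Subfertile cows, against 32.1% to 60.6% and a median of 41.4% in Fertile cows (limma adjusted p = 0.0813). SYT16, of the synaptotagmin family, held 124 sites and averaged 65.6 ± 8.59% in Subfertile cows and 45.3 ± 14.1% in Fertile cows (SD, n = 6 each; limma adjusted p = 0.0719). In ASIC2 and SYT16 the groups overlapped.

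EPHB1, an ephrin receptor tyrosine kinase, and FHIP1A, part of an adaptor complex that links endosomes to dynein, were lower in Subfertile cows at most of their sites without passing the test. EPHB1 had cow means of 11.7% to 69.6% in Subfertile cows with a median of 39.5%, against 44.4% to 77.6% in Fertile cows with a median of 73.0% (limma adjusted p = 0.0612). FHIP1A had 15.01% to 37.2% in Subfertile cows with a median of 17.7%, against 17.6% to 80.3% in Fertile cows with a median of 57.4% (limma adjusted p = 0.0568). In both introns 1 Fertile cow, number 6, fell among the Subfertile cows. PDE8B, a cyclic AMP phosphodiesterase, and HS6ST3, a heparan sulfate sulfotransferase, held 125 and 116 sites whose directions were mixed, and their intron means differed by less than the spread between cows (limma adjusted p = 0.771 and 0.435).

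LRRC17, a secreted leucine-rich repeat protein that restrains osteoclast formation in mouse, showed a division within 1 group. Subfertile cows 3, 4, 5 and 6 had means of 49.4% to 51.9% over its 91 sites, while Subfertile cows 1 and 2 had 12.2 and 13.1%. The Fertile cows had 8.76% to 12.4% with a median of 10.1%. Subfertile cow 1 thus stood among the Fertile cows, 83 of the 91 sites were higher in Subfertile cows, and the intron was just outside the threshold (limma adjusted p = 0.0538).

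Of 1503 first introns with at least 3 sites, 1502 had a mean in all 12 cows and were tested. The limma fit called 49, or 3.26%, against 3.35% of all regions of the table. Of these, 34 were higher in Subfertile cows (2.26%, against 1.99% of all regions) and 15 lower (0.999%, against 1.36%). First introns were therefore called about as often as the other deposited regions. The median difference was 0.53 points over the 1502 tested introns, and the median size of the difference was 24.0 points over them and 35.8 points over the 49 called. An unadjusted p under 0.05 was found for 665 first introns (44.3%, against 46.1% of all regions). These p-values set the difference between the groups against the spread of cows within them. The sites were selected on the same cows, so they give no independent evidence. An adjusted p of limma lay between 0.04 and 0.05 for 36 of the 49 calls and between 0.05 and 0.06 for 128 further introns. The count was 9 without Subfertile cow 6, 14 without Subfertile cow 1, 23 without Fertile cow 1 and 31 without Fertile cow 4. The call was kept for 4 introns in all 12 fits that left out 1 cow, those of CCDC68, IL21R and PXK and 1 without a symbol.

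The called introns lay on 22 autosomes at 46 places more than 1 Mb apart. All sites pointed the same way in 36 of the 49, against 39.3% of the tested introns. Of their 682 sites 50.1% were genotype-like, against 70.5% in the tested introns. Calls rest on intron means, in which opposite directions offset each other, and on the spread among cows. Both contrasts are therefore tied to how calls are made. The groups of cows did not overlap in 26 of the 49 called introns, and in 58 of the 1502 tested (3.86%, against 3.76% of all regions).

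**Figure D4:**
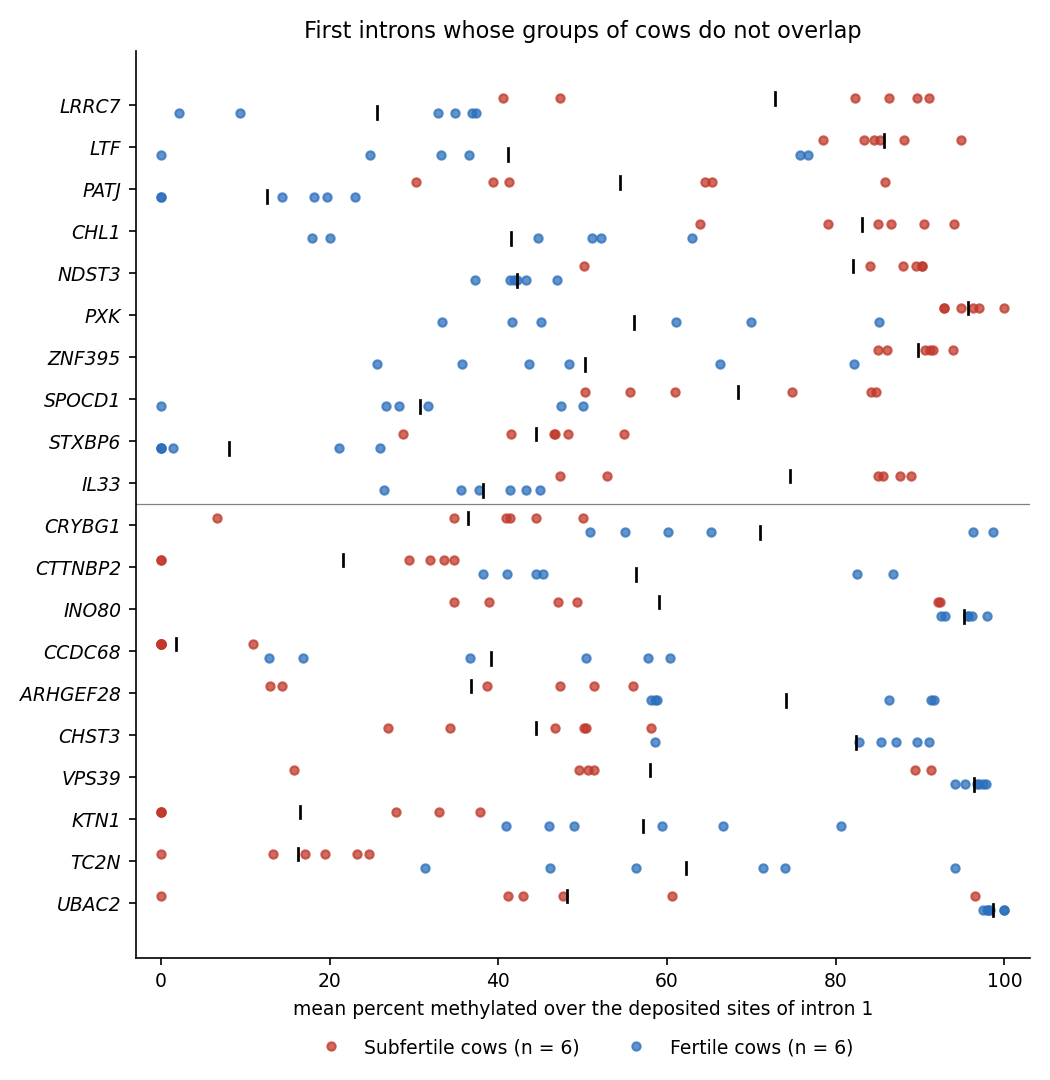
Mean percent methylated over the deposited sites of intron 1 in each cow, for the named introns whose groups do not overlap, in Subfertile cows (red, upper row of each pair) and Fertile cows (blue, n = 6 each), with vertical ticks at the group means. Above the line Subfertile cows are higher and below it they are lower.

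Higher methylation in Subfertile cows was called in 34 introns. PXK, a phox homology domain protein with a kinase-like domain, had the smallest adjusted p of all tested first introns. Its 3 sites averaged 92.9% to 100% in Subfertile cows with a median of 95.6%, against 33.3% to 85.2% in Fertile cows with a median of 53.1% (limma adjusted p = 0.0288). All Subfertile cows were nearly fully methylated there and the Fertile cows were scattered below them. Of the 3 sites 2 were genotype-like.

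IL21R, the receptor of interleukin 21, a cytokine that acts on B, T and natural killer cells, was chosen after its values were seen, among the calls kept in all 12 fits. All 16 of its sites over chr25:24958327-24978592 (ARS-UCD1.2) were higher in Subfertile cows. The cow means ran from 5.73% to 48.1% in Subfertile cows with a median of 43.7%, against 0% to 4.53% in Fertile cows with a median of 2.35% (limma adjusted p = 0.0303). The Fertile cows were almost unmethylated, and 1 of the 16 sites was genotype-like. That label needs a cow near each extreme of the scale, and no cow mean here was above 48.1%. The count therefore says nothing of the cows' genotypes, whose part was not tested. The log2 difference was 3.03 ± 0.52 (SE).

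IL33, an alarmin cytokine released by damaged barrier cells, had means of 47.3% to 88.9% over 5 sites in Subfertile cows with a median of 85.3%, against 26.4% to 44.9% in Fertile cows with a median of 39.6% (limma adjusted p = 0.0487). No cow of 1 group reached the other group, but the call held in 2 of 12 fits without 1 cow, with an adjusted p of up to 0.0669 without Subfertile cow 6. LTF, the iron-binding lactoferrin of neutrophil granules and milk, averaged 85.8 ± 5.44% in Subfertile cows and 41.2 ± 30.03% in Fertile cows over 6 sites (SD, n = 6 each). Its groups did not overlap either, at 78.5% to 94.8% in Subfertile cows and 0% to 76.7% in Fertile cows, and it did not pass the test (limma adjusted p = 0.0542). The 6 LTF sites lay in 1 cluster and all were genotype-like, against 0 of 5 sites in IL33.

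NDST3, an enzyme that modifies heparan sulfate, had 11 sites, all higher in Subfertile cows. Its cow means ran from 50.1% to 90.2% in Subfertile cows with a median of 88.7%, against 37.2% to 47.0% in Fertile cows with a median of 42.1% (limma adjusted p = 0.0366). Subfertile cow 5 stood alone near the Fertile cows, and the other Subfertile cows were far above it. The call was lost without Subfertile cow 6 (limma adjusted p = 0.0535). CHL1, a neural cell adhesion molecule, averaged 83.2 ± 10.7% in Subfertile cows and 41.5 ± 18.4% in Fertile cows (SD, n = 6 each; limma adjusted p = 0.0406), and kept its call in 9 of 12 fits, with an adjusted p of up to 0.0583 without Subfertile cow 6. In NDST3 1 of 11 sites was genotype-like, and in CHL1 6 of 7 were.

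LRRC7, a scaffold protein of excitatory synapses, had the largest difference among the named introns that did not overlap with Subfertile cows higher. Its 4 sites averaged 72.8 ± 22.7% in Subfertile cows and 25.6 ± 15.6% in Fertile cows (SD, n = 6 each; limma adjusted p = 0.0493). PATJ, a scaffold of the Crumbs polarity complex, averaged 54.4 ± 20.9% in Subfertile cows and 12.5 ± 10.1% in Fertile cows (SD, n = 6 each; limma adjusted p = 0.0464). STXBP6, which binds SNARE proteins in exocytosis, had means of 28.8% to 54.9% in Subfertile cows with a median of 46.7%, against 0% to 26.0% in Fertile cows with a median of 0.71% (limma adjusted p = 0.0369). Fertile cows 1, 2 and 6 were at 0% over its 5 sites. Genotype-like sites were 4 of 4 in LRRC7, 6 of 7 in PATJ and 1 of 5 in STXBP6. LRRC7 kept its call in 3, PATJ in 4 and STXBP6 in 9 of 12 fits without 1 cow, with adjusted p of up to 0.0669, 0.0604 and 0.0535.

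ZNF395, a zinc finger protein, averaged 89.7 ± 3.46% in Subfertile cows and 50.3 ± 20.7% in Fertile cows (SD, n = 6 each; limma adjusted p = 0.0369), with no genotype-like site among 6, and lost its call only without Subfertile cow 6 (limma adjusted p = 0.0535). SPOCD1, which in mouse takes part in the methylation of transposons directed by small RNAs in the male germ line, averaged 68.4 ± 14.8% in Subfertile cows and 30.7 ± 18.0% in Fertile cows (SD, n = 6 each) and did not pass the test (limma adjusted p = 0.0568). All 3 SPOCD1 sites were genotype-like.

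Lower methylation in Subfertile cows was called in 15 introns. CCDC68, a protein of the subdistal appendages of centrioles, was the clearest. Over its 7 sites at chr24:54311104-54322181 (ARS-UCD1.2) 5 Subfertile cows were at 0% and Subfertile cow 2 at 10.95%, while Fertile cows ran from 12.8% to 60.4% with a median of 43.5% (limma adjusted p = 0.0313). Every site was lower in Subfertile cows and the groups did not overlap, although the highest Subfertile and lowest Fertile cow were close. CHST3, a chondroitin sulfotransferase, had means of 26.9% to 58.1% in Subfertile cows with a median of 48.4%, against 58.6% to 91.1% in Fertile cows with a median of 86.3% (limma adjusted p = 0.0369). Fertile cow 5 lay just above the highest Subfertile cow, and the call was lost only without Subfertile cow 6 (limma adjusted p = 0.0535). In CCDC68 4 of 7 sites were genotype-like, and in CHST3 3 of 4.

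UBAC2, a ubiquitin-binding protein of the endoplasmic reticulum, showed the largest difference among the introns that did not overlap with Subfertile cows lower. Its 4 sites had cow means of 0% to 96.5% in Subfertile cows with a median of 45.3%, against 97.5% to 100% in Fertile cows with a median of 98.2% (limma adjusted p = 0.0461). The Fertile cows were uniformly methylated and the Subfertile cows covered nearly the whole scale. The 4 sites lay in 1 cluster at chr12:76085396-76085406 (ARS-UCD1.2), and all of them were genotype-like. VPS39, a subunit of the HOPS complex that tethers late endosomes to lysosomes, had 15.8% to 91.3% in Subfertile cows with a median of 51.0%, against 94.1% to 97.8% in Fertile cows with a median of 96.9% (limma adjusted p = 0.0489). TC2N, a protein with tandem C2 domains, averaged 16.3 ± 8.97% in Subfertile cows and 62.2 ± 22.3% in Fertile cows (SD, n = 6 each; limma adjusted p = 0.0464). UBAC2, VPS39 and TC2N kept their calls in 3, 1 and 2 of 12 fits without 1 cow, with adjusted p of up to 0.0588, 0.0645 and 0.0628. In VPS39 5 of 9 sites were genotype-like, and in TC2N 3 of 4.

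The other 5 of the 10 did not pass the test although their groups did not overlap. KTN1, a kinesin-binding membrane protein, averaged 16.5 ± 18.3% in Subfertile cows and 57.1 ± 14.8% in Fertile cows (SD, n = 6 each; limma adjusted p = 0.0502). INO80, the ATPase of a chromatin remodelling complex, averaged 59.1 ± 26.2% in Subfertile cows and 95.2 ± 2.06% in Fertile cows (SD, n = 6 each; limma adjusted p = 0.0501), and 2 Subfertile cows stood just under the lowest Fertile cow. ARHGEF28, a guanine nucleotide exchange factor, CTTNBP2, a cortactin-binding protein of dendritic spines, and CRYBG1, with beta-gamma crystallin domains, had limma adjusted p of 0.0541, 0.0635 and 0.0636.

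The remaining called introns, listed after their values were seen, had no single theme that was tested. With Subfertile cows higher they included ARHGAP25, a Rac GTPase-activating protein of blood cells, at 37.8 ± 12.6% in Subfertile cows and 8.82 ± 8.29% in Fertile cows (SD, n = 6 each; limma adjusted p = 0.0452). KCTD6, an adaptor of a ubiquitin ligase, had 42 of 42 sites higher, with means of 9.15% to 57.0% in Subfertile cows and a median of 54.2%, against 0.22% to 8.34% in Fertile cows and a median of 5.66% (limma adjusted p = 0.0493). ZDHHC14, a palmitoyltransferase, held 61 sites, 56 of them higher, and averaged 87.6 ± 3.28% in Subfertile cows and 47.0 ± 24.0% in Fertile cows (SD, n = 6 each; limma adjusted p = 0.0488). MC2R, the adrenal receptor of corticotropin, averaged 96.4 ± 2.73% in Subfertile cows and 64.4 ± 20.9% in Fertile cows over 3 sites (SD, n = 6 each; limma adjusted p = 0.0423). Genotype-like sites were 54 of 61 in ZDHHC14, 9 of 42 in KCTD6 and 0 of 3 in both ARHGAP25 and MC2R.

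SLC7A1, a transporter of cationic amino acids, and UBL3, a ubiquitin-like protein, lie near each other on chromosome 12 and were both higher in Subfertile cows. SLC7A1 averaged 79.7 ± 17.1% in Subfertile cows and 44.7 ± 2.45% in Fertile cows, and UBL3 averaged 84.5 ± 16.3% in Subfertile cows and 49.4 ± 3.18% in Fertile cows (SD, n = 6 each; limma adjusted p = 0.0423 for both). In these introns the Fertile cows stood in a narrow band near the middle of the scale. In SLC7A1 3 of 26 sites were genotype-like, and in UBL3 1 of 8. CD82, NBEA, PLXND1, PRKAR2A, PDE9A, ANXA11, CAPN5, MEMO1, ARHGAP18, MARCHF3, TMEM108, PLPP4, SLC45A4, R3HCC1L and NT5DC3 were also called higher, as were 3 introns without a symbol. With Subfertile cows lower, MRPL21, EDC3, FAM171B, NHSL1, HIBADH, VGLL4, EPC1, SGPP2, ZNF365 and EEPD1 were called. MRPL21, of the mitochondrial ribosome, had the largest difference among them, at 24.6 ± 27.1% in Subfertile cows and 87.2 ± 20.05% in Fertile cows (SD, n = 6 each; limma adjusted p = 0.0428), and its cows overlapped. All 4 of its sites were genotype-like. Of the 12 fits that each left out 1 cow, ARHGAP25 kept its call in 5, KCTD6 and ZDHHC14 in 2, MC2R, SLC7A1 and MRPL21 in 8 and UBL3 in 9, with limma adjusted p of up to 0.0691, for KCTD6 without Subfertile cow 6. Over all 49 calls the number of fits that kept them was 1 to 12.

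No single first intron site passed limma over the whole table, where 0.0% of sites were called (smallest adjusted p of a first intron site 0.0659). An unadjusted p under 0.05 was found at 10362 of them, or 54.1%, against 52.7% of all sites. On plain percent values 70 first intron sites passed, and without genotype-like sites 4353 of 5851 did, against 73.0% of all such sites. Genotype-like sites are those with a wide range among these same cows, so leaving them out selects on the tested values. The count without them is therefore no support for the differences. Among sites with a value in all cows whose groups did not overlap, taking 1 site per gene in each direction, the largest difference with Subfertile cows higher, in PDE8B at chr10:8434930, was 72.1 points, with 42.9% to 100% and a median of 100% in Subfertile cows against 0% to 30.8% and a median of 9.09% in Fertile cows. The next were in OIT3, SLC24A2, RNF165 and VKORC1L1, at 66.3 to 69.6 points. With Subfertile cows lower, the largest was in OIT3 at chr28:28918196, at 0% in all Subfertile cows against 47.4% to 100% and a median of 60.2% in Fertile cows. TBC1D5, TLL1, RNF165 and SLC24A2 followed with differences of -62.5 to -60.4 points. All 10 sites were genotype-like, and their limma adjusted p values were 0.0659 or 0.0661.

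RNF165, a RING finger ubiquitin ligase, named for single sites in both directions, again held both kinds of stretch in 1 intron. Its 41 higher sites averaged 78.4 ± 14.4% in Subfertile cows and 44.4 ± 18.1% in Fertile cows (SD, n = 6 each). Its 42 lower sites averaged 28.4 ± 21.6% in Subfertile cows and 78.0 ± 18.3% in Fertile cows (SD, n = 6 each), where Subfertile cows 2 and 6 were at 0.794 and 0.665% and the other Subfertile cows at 37.3% to 45.6%. As in SLC24A2, these sets were formed by direction and their values are a description.

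Genes of 8 lists were looked up for first intron sites: markers of T cells, B cells, natural killer cells, monocytes and neutrophils, and erythroid cells and platelets, genes with a regulatory element described in intron 1 in human or mouse, reproductive hormone and pregnancy genes, and the DNA methylation machinery. Of 125 genes, 24 had a site, with 184 sites in all, 99 of them higher in Subfertile cows (52.1% over the whole table) and 9 not overlapping (3.1% over the whole table). Of the first introns that hold them, 16 were tested and none was called by limma (lowest adjusted p 0.0521), against 3.35% of all regions. Their median difference was -0.09 points, against 0.53 points over all tested first introns.

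The marker lists of blood cell types held 7 of these introns. CAMK4, a calcium-dependent kinase of T cells, and RORA, a nuclear receptor, had 26 and 24 sites with mixed directions, and CD5, a T cell surface protein, had 3 (limma adjusted p = 0.278, 0.931 and 0.180). BANK1, a B cell scaffold protein, averaged 62.3 ± 13.8% in Subfertile cows and 88.6 ± 10.4% in Fertile cows over 3 sites (SD, n = 6 each; limma adjusted p = 0.0521). The 115 sites in later introns of BANK1 went mostly the other way. They averaged 77.4% in Subfertile cows and 43.8% in Fertile cows, and 99 of them were higher in Subfertile cows. NCAM1, the natural killer cell marker CD56 in human, averaged 87.1 ± 13.8% in Subfertile cows and 68.3 ± 26.3% in Fertile cows (SD, n = 6 each; limma adjusted p = 0.174). LTF, given above, was the neutrophil marker. ITGB3, an integrin of platelets, had means of 69.3% to 86.2% in Subfertile cows with a median of 83.0%, against 5.56% to 83.2% in Fertile cows with a median of 45.6% (limma adjusted p = 0.0568). The part of cell proportions in the differences was not tested.

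Among the genes with a described intron 1 element, ABO, the blood group glycosyltransferase, was lower in Subfertile cows at all 15 of its sites. Its cow means ran from 0% to 44.8% in Subfertile cows with a median of 43.2%, against 42.9% to 86.3% in Fertile cows with a median of 82.2% (limma adjusted p = 0.0619). Subfertile cow 6 was at 0% and the other Subfertile cows at 39.5% to 44.8%, and 14 of the 15 sites were genotype-like. EGFR, the receptor of epidermal growth factor, averaged 71.7 ± 17.9% in Subfertile cows and 44.6 ± 19.5% in Fertile cows (SD, n = 6 each; limma adjusted p = 0.0754). RUNX1, FTO, CFTR and ADA had limma adjusted p of 0.942, 0.208, 0.114 and 0.111.

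Of the reproductive genes, FSHR, the receptor of follicle-stimulating hormone, averaged 43.4 ± 16.5% in Subfertile cows and 65.0 ± 9.92% in Fertile cows over 15 sites, 12 of them lower in Subfertile cows (SD, n = 6 each; limma adjusted p = 0.0828). In later introns of FSHR 40 of 64 sites were higher in Subfertile cows, with means of 49.1% in Subfertile cows and 39.7% in Fertile cows. LHCGR, the receptor of luteinizing hormone, averaged 33.7 ± 9.99% in Subfertile cows and 36.0 ± 4.19% in Fertile cows over 4 sites (SD, n = 6 each; limma adjusted p = 0.691). BMPR1B, a receptor of bone morphogenetic proteins known for its effect on ovulation rate in sheep, averaged 34.5 ± 34.0% in Subfertile cows and 70.8 ± 17.9% in Fertile cows (SD, n = 6 each; limma adjusted p = 0.0972). In all 3 genes the cows of the groups overlapped.

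First introns of chromosome 22 held 8 of the 49 calls, or 16.3%, and 4.73% of the tested introns. The called share was 11.3% of the tested first introns on chromosome 22 (8 of 71) and 11.4% on chromosome 12 (4 of 35, UBAC2, NBEA, SLC7A1 and UBL3). Those on chromosome 22 were PDZRN3, KCTD6, PXK, PLXND1, CHL1, PRKAR2A and 1 without a symbol, with Subfertile cows higher, and VGLL4, a cofactor of TEAD factors, with Subfertile cows lower. KCTD6 and PXK lay within 1 Mb of each other, as did PLXND1 and VGLL4, and on chromosome 12 SLC7A1 and UBL3. The calls of these chromosomes are therefore not all separate places. Of the 1137 first intron sites on chromosome 22, 92 (8.09%) did not overlap, against 3.47% of the other deposited sites of the chromosome. Outside PDZRN3 it was 51 of 994, or 5.13%. On chromosome 8 the share was 8.99% of first intron sites, against 5.66% of its other sites, and outside SLC24A2 it was 19 of 751, or 2.53%. These chromosomes were picked after the shares were seen.

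**Figure D5:**
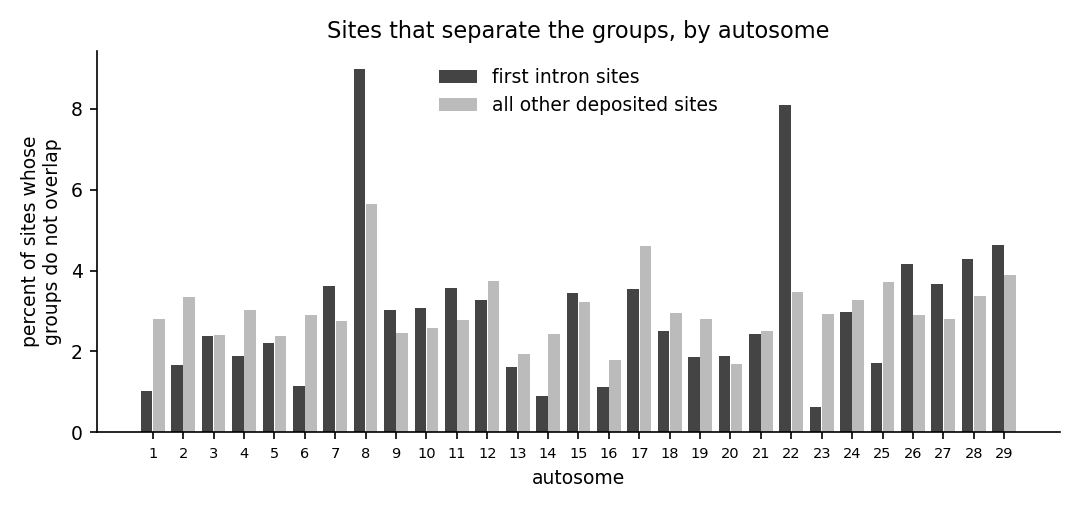
Percent of deposited sites whose groups of cows do not overlap, by autosome, for first intron sites (dark bars) and all other deposited sites (light bars). Chromosome 8 at 8.99 percent and chromosome 22 at 8.09 percent stand above the other autosomes for first intron sites.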

How the data were processed

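Per the labels' protocols, blood DNA of 12 cows was sequenced after enzymatic conversion. ChIPseeker 1.32.1, DRAGEN, Bismark and fastp 0.23.1 are named in the submitters' processing notes without their roles, beside the build ARS-UCD1.2. Neither the tool behind the p-values nor a read minimum is given in the sources used here. Per the file headers, the deposited table holds the percent methylated per cow, the authors' mean percent per group, the authors' difference in percent, and a p-value and q-value. Per the file headers it also gives the distance to the nearest transcript start, in bases.

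No depth was given, so no interval for a level could be computed, and the planned test for percentages was used. Columns were matched to cows by their number, and 0 columns of per-cow values were left unused. Symbols were taken from the deposited table for the gene that holds the intron. Percent values were averaged per cow over a region (1 intron or exon of 1 transcript, or 1 gene and annotation class) of at least 3 sites with a mean in all 12 cows. The means were tested in R 4.3.3 with limma 3.58.1, on the log2 ratio (percent + 5)/(100 − percent + 5), group as the only term, with Benjamini-Hochberg adjustment over the whole table. On simulated data over 14695 regions, 0, 20, 76 and 92% of regions shifted by 20, 40, 60 and 80 points were called and 0% of unshifted ones. That simulation shifted a small part of the regions, all near the middle of the scale, and left the others without a difference. In the deposited table every site was selected for a difference, so these rates do not apply to the calls reported. Shares have exact binomial intervals at 95%.

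The members, lists and tests were chosen with earlier results of these data known. Named were, with 1 intron per gene, the 10 with most sites, the 10 largest positive and 10 largest negative differences among introns whose groups do not overlap, 5 single sites each way with 1 per gene, and list members with at least 3 sites. Alternatives covered the added points, the scale, minimum sites, genotype-like sites, strands, thresholds and leaving out each cow. Beyond what the opening gives, the labels do not say more of the cows than that they are separate animals of 1 herd. Python 3.11.15, pandas 2.3.3 and scipy 1.17.1 gave the summaries.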

Additional observations from a re-analysis of the deposited data

Results flagged for a closer look

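In 15 of 112 groups of 6 cows examined (13.4%), 1 cow stood apart from the other 5 by Dixon's criterion. Chance gives about 1 in 20 for independent, normally distributed values. Percent values are bounded, and many of these groups were named for their large differences, so that rate is no reference for this share. Cows of 1 herd and sites of 1 intron are not independent, and the cause was not tested.

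Among Subfertile cows, cow 1 had 53.5% over the FHIT intron, where the others had 32.9 to 38.2%, and 6.67% over CRYBG1, where the others had 34.8 to 50%. Cow 2 had 10.95% over CCDC68, where the others were at 0%, and 35.6% over BANK1, where the others had 62.4 to 74.7%. Cow 3 had 69.3% over ITGB3, against 80.7 to 86.2% in the others. Cow 4 had 37.2% over FHIP1A, against 15.01 to 19.1%, and 28.9% over ADA, where the others were at 0%. Cow 5 had 50.1% over NDST3, against 84.1 to 90.2%. Cow 6 was at 0% over ABO, where the others had 39.5 to 44.8%, and at 12.5% over FSHR, where the others had 42.6 to 58.5%.

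Among Fertile cows, cow 3 had 58.4% over SLC24A2, where the others had 41.4 to 46.7%. Cow 6 had 44.4% over EPHB1, against 71.3 to 77.6%. Cow 5 had 58.6% over CHST3, against 82.7 to 91.1%. Cow 1 had 55.6% at the RNF165 site chr24:46101524, where the others had 92.3 to 100%, and 22.2% at the RNF165 site chr24:46091953, where the others were at 0%.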

How the results depend on the processing

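The depth behind each value is unknown, the sites were selected on the same 12 cows, and genotypes and cell proportions were not measured. No paired analysis was made, because the groups hold different cows and the labels name no pairs. The labels carry no replicate numbers, and the numbers used here only name cows.

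The count of called first introns, 49 as reported, was 22 with 1 point added in place of 5, 186 on plain percent values (93 higher and 93 lower), 30 of 1323 with the strands of a CpG averaged, and 612 at an adjusted p of at most 0.1. It was 1 of 2878 with at least 1 site per region, 110 of 958 with at least 5 sites and 286 of 555 without genotype-like sites, settings that tested more or fewer introns than the 1502 reported. Over all regions the same settings called 1.46, 11.7, 2.27, 42.0, 0.0639, 11.4 and 52.1%, close to the 1.46, 12.4, 2.27, 40.7, 0.0347, 11.5 and 51.5% of first introns. Within autosomes it was 49. Leaving out 1 cow gave 9 to 62, and without Subfertile cow 4 the calls were 26 higher and 36 lower. Genotype-like sites are defined by a wide range among the tested cows, so the counts of introns and sites without them come from a filter on the tested values. Beyond this, the cause of these shifts was not tested.

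Sites called, 0 as reported, numbered 70 on plain percent values and 4353 without genotype-like sites, and 0 in each fit without 1 cow. The share of sites higher in Subfertile cows, 51.7%, was 54.1% without genotype-like sites and 51.0% with sites within 1 kb counted once. The non-overlapping share, 3.13%, was 6.69% at 40 points or more, 6.10% without genotype-like sites, 2.75% over sites with a value in all cows and 2.85% without chromosome 8, where the whole table gave 6.78, 5.71, 2.67 and 2.93%. The mean of first minus later introns was -1.05 points over sites with a value in all cows and -1.73 points without genotype-like sites. With each intron averaged to 1 value first it was -0.42 ± 0.71 points (SD, n = 12), and first introns stood below later introns in 8 of 12 cows.

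Of 55 named introns and sites, 4 introns that were not called changed sign without 1 cow, on the log2 scale. RUNX1, at -0.17 to 0.21 over these fits, was -0.10 without Subfertile cow 1, -0.17 without Subfertile cow 2, -0.05 without Fertile cow 5 and -0.06 without Fertile cow 6. RORA, at -0.11 to 0.064, was 0.026 without Fertile cow 5 and 0.064 without Fertile cow 6. PDE8B, at -0.19 to 0.010, and LHCGR, at -0.29 to 0.048, turned positive without Subfertile cow 4.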
